A study of Mus musculus with 167 samples.

Results

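CTCF peaks far from promoters were described in cultured mouse pro-B cells, the precursors of antibody-producing B cells that rearrange the immunoglobulin heavy-chain locus (Igh). A peak of the first wild-type CTCF library was taken where a peak of the second wild-type library overlapped it by at least 1 base and its midpoint lay more than 50 kb from every annotated transcription start of the mouse mm9 genome. This gave 4190 distal peaks, out of 34272 peaks shared by both wild-type libraries and 36687 peaks in the first library. The choice rested on positions alone, and the peaks' widths, sequence and presence in the mutant libraries were not used directly to choose them. The rule still bears on some of these. Peaks over 50 kb from a start that were not found in the second wild-type library were narrower (median 239 bases, against 337 bases for those kept). Presence in the mutant libraries followed width, and the distance rule acts on spacing, as described below.

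The study used C57BL/6 mice and mapped CTCF by ChIP-seq with a rabbit polyclonal antibody. There were 2 wild-type (WT) libraries and 2 libraries from cells of genotype Igh(890-inv/890-inv), in which a segment of the Igh locus is inverted on both chromosomes. The cells of all 4 libraries had been expanded in vitro for 5 days. For RNA levels, 2 polyA libraries of pro-B cells of genotype Wapl(+/+) expanded for 3 days were read, so the RNA came from other cultures than the CTCF maps. The labels do not say whether libraries of a group came from separate animals.

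CTCF is a zinc-finger protein that binds a long, directional DNA motif. It halts the cohesin complex as cohesin extrudes chromatin loops, and loops form most readily between sites whose motifs point towards each other. In pro-B cells CTCF sites shape the loops that bring distant antibody gene segments together, and CTCF sites away from genes often lie at the borders of chromosome domains.

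The exact CTCF consensus core was present in 1001 of the 4190 distal peaks, among them the farthest of all. The 3 farthest that hold it are shown as 60 bases read along the site, with the 12 bases of the core in capitals, because no other sites with the core lie farther from a start. They lie at chr7:101194610-101194934 (867 kb from the nearest start), chr3:111141200-111141508 (774 kb) and chr15:21814949-21815323 (664 kb), all in mm9 coordinates with the letters from the NCBIM37 genome. The sites on chromosomes 7 and 3 are on the minus strand and that on chromosome 15 is on the plus strand.
chr7 site, minus strand: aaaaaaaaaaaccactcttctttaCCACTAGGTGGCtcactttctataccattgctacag
chr3 site, minus strand: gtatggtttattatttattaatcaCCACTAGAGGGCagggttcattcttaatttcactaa
chr15 site, plus strand: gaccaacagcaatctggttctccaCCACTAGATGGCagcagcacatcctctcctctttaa
The chromosome 7 and chromosome 15 peaks were found in both 890-inv libraries, and the chromosome 3 peak in the first 890-inv library but not the second.

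The libraries differed in how much was called. The WT libraries held 36687 and 36133 peaks and the 890-inv libraries 34754 and 29352. The second 890-inv library stood apart from the others, with the fewest and the narrowest peaks: its median width was 327 bases, against 349 and 373 bases in the WT libraries and 359 bases in the first 890-inv library. The peak lists hold positions only, with the same score of 0 in every row, so neither the depth nor the height of any peak is known. The share of peaks found in both 890-inv libraries is set mostly by the second, so main shares are also given for each library, while single genes and runs are mostly given as counts found in both.

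Distal peaks thinned out steadily with distance from a start. The density of shared peaks was 46.3 per Mb of sequenced genome within 1 kb of a start and 13.7 per Mb between 10 and 50 kb. It was 6.72 per Mb between 50 and 100 kb (2579 peaks), 3.84 per Mb between 100 and 200 kb (1164 peaks) and 1.94 per Mb between 200 and 500 kb (420 peaks). Beyond 500 kb it was 0.623 per Mb, with 27 peaks in 43.3 Mb. Sequence over 50 kb from a start made up 37.0% of the sequenced genome but held 4190 of the 34272 shared peaks, at 4.42 per Mb against 18.7 per Mb in the rest. Such sequence also had a lower GC content, 39.9% against 42.8%. Presence in the first 890-inv library was 94.5%, 94.5%, 94.8% and 88.9% in these 4 distal steps, and in the second 82.1%, 81.9%, 75.7% and 77.8%.

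**Figure D1:**
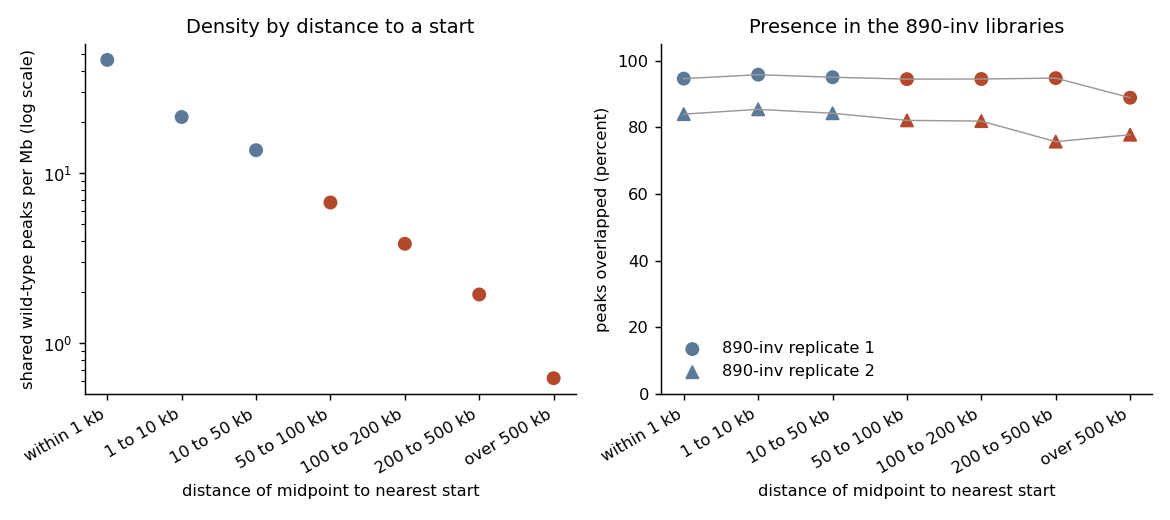
Density of shared WT peaks per Mb (left, log axis) and share of them overlapped in each 890-inv library (right, percent) against the distance of the midpoint to the nearest start, with distal peaks in red and other shared peaks in blue, circles for 890-inv replicate 1 and triangles for replicate 2. Density falls in every step, from 46.3 to 0.623 per Mb, while presence ranges from 88.9% to 95.8% in 890-inv replicate 1 and from 75.7% to 85.4% in replicate 2.

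The median distal peak lay 85.0 kb from the nearest start (quartiles 63.0 and 130 kb, 90th percentile 206 kb). The farthest was the chromosome 7 peak shown above, whose widths were 325 and 307 bases in the WT libraries and 388 and 255 bases in the 890-inv libraries. The peak at chr14:81245397-81245683, 845 kb from the nearest start, that of Olfm4, was 287 and 273 bases wide in WT, had no peak in the first 890-inv library and was 238 bases wide in the second. The peak at chr1:144638939-144639294, 815 kb from Cdc73, was found in all 4 libraries. At the threshold itself, the 5 peaks just inside lay 50.0 to 50.1 kb from a start (50015.5 to 50064.5 bases) and the 5 shared peaks just outside lay 49964 to 49994 bases away.

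Distal peaks were found on every autosome and on both sex chromosomes. Counts on the autosomes ran from 110 on chromosome 11 to 343 on chromosome 1, with a median of 215. They were 4.03% of the shared peaks of chromosome 11 and 22.1% of those of chromosome 13. Across the 19 autosomes this share rose with the part of the chromosome lying over 50 kb from a start (Spearman's rho 0.812 across chromosomes, a description only, since both measures come from the same starts). Per Mb of such sequence the autosomes ran from 2.95 peaks on chromosome 14 to 6.54 on chromosome 19.

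Chromosome X carried 74 distal peaks at 1.76 per Mb of distant sequence, below every autosome. Its other shared peaks were also sparse, at 6.38 per Mb within 50 kb of a start, against 15.1 to 27.4 per Mb on the autosomes. Chromosome Y held 1 shared peak, which was distal. The median distal peak width ranged from 326.5 bases on chromosome 5 to 357.5 bases on chromosome 19, and was 303 bases on chromosome X.

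**Figure D2:**
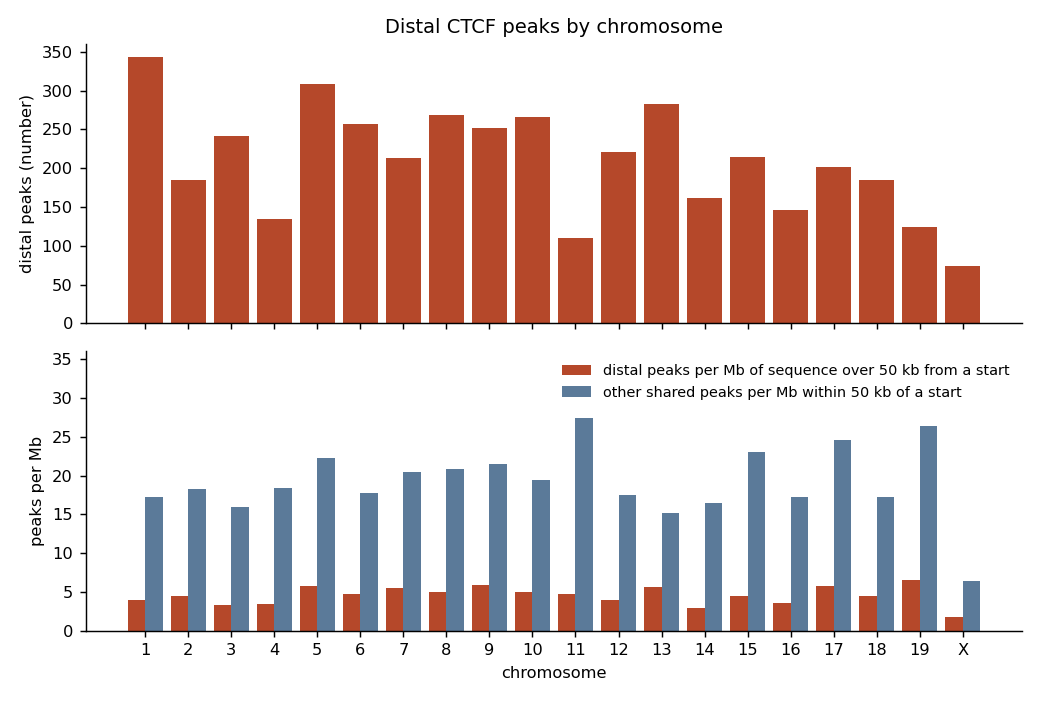
Number of distal peaks on each autosome and chromosome X (top) and peaks per Mb (bottom), with distal peaks per Mb of sequence over 50 kb from a start in red and other shared peaks per Mb within 50 kb in blue. Chromosome Y, which holds 1 shared peak, is not drawn. Chromosome 1 has the most distal peaks (343), and chromosome X lies below every autosome in density of both kinds (1.76 and 6.38 per Mb).

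Distal peaks were narrower than the other shared peaks. In the first WT library their median width was 337 bases (quartiles 287 and 400, range 170 to 1100). Shared peaks within 50 kb of a start had a median of 360 bases and those within 1 kb a median of 386 bases. Among distal peaks the median fell with distance, from 340 bases between 50 and 100 kb to 309 bases beyond 500 kb. No test across peaks was made, since peaks of 1 library are not replicates.

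The widest distal peak was chr17:79003199-79004298, in an intron of Vit and 79.9 kb from Strn, the nearest protein-coding start, which encodes a striatin scaffold protein. It measured 1100 and 1081 bases in the WT libraries and 1074 and 1036 bases in the 890-inv libraries. The next widest, chr2:101312760-101313833, was 1074 and 1089 bases wide in WT, 1045 bases in the first 890-inv library and 565 bases in the second. The narrowest was chr19:27854593-27854762, in an intron 56.7 kb from the start of Rfx3, a transcription factor of cilium genes. It was 170 and 238 bases wide in WT and had no peak in either 890-inv library. Of the 5 narrowest, 1 was found in the first 890-inv library and none in the second, while all of the 5 widest were found in both.

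The distal peaks found in all 4 libraries numbered 3383. Their median width was 356 and 378 bases in the WT libraries and 360 and 312 bases in the 890-inv libraries. The second 890-inv library was lowest and the first lay between the WT libraries, so the groups overlapped. Over all distal peaks of each library the median width was 339 ± 15.6 bases in WT and 325 ± 21.2 bases in 890-inv (SD, n = 2 each), a difference of -14.0 bases with an exact two-sided permutation p of 0.6667. With 2 libraries against 2 the smallest p this test can give is 0.3333. Without the second 890-inv library the difference was 1.0 base. Widths of the same peaks ranked alike in the 4 library pairs compared (Spearman's rho 0.763 to 0.783 across 3383 peaks, which are not independent replicates).

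Of the 4190 distal peaks, 3958 (94.5%) were overlapped by a peak of the first 890-inv library and 3409 (81.4%) by a peak of the second. In both libraries 3383 were found, or 80.7% (exact binomial 95% interval 79.5 to 81.9, which covers counting error only). That interval takes peaks as independent, which peaks of the same libraries are not, and it does not measure the spread between libraries. Over all 34272 shared peaks the shares were 95.2% in the first library, 84.3% in the second and 83.6% in both. A further 575 distal peaks (13.7%) were found in the first 890-inv library only, against 3972 of the 34272 shared peaks. Found in the second only were 26 distal peaks (0.621%), against 232 of all shared peaks. In neither were 206 (4.92%), against 4.14% of all shared peaks. These 206 lay on 20 chromosomes.

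Presence followed width. Of the 1287 distal peaks of 170 to 298 bases, the lowest quartile of shared peaks, 83.6% were found in the first 890-inv library and 51.6% in the second. Between 299 and 356 bases the shares were 98.8% and 89.2%, between 357 and 432 bases 99.6% and 97.7%, and above that 99.7% and 99.1%. Of the 206 peaks found in neither, 190 belonged to the lowest quartile, and their median width was 241 bases, against 356 bases for peaks found in both. Compared at the same width, distal and other shared peaks were found in both 890-inv libraries at similar rates: 50.0% against 48.8% in the lowest quartile, 89.0% against 89.4%, 97.6% against 97.5% and 98.99% against 98.8% in the highest. Distal peaks had 30.7% of their number in the lowest quartile and 16.5% in the highest, against 24.4% and 25.9% for the others.

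**Figure D3:**
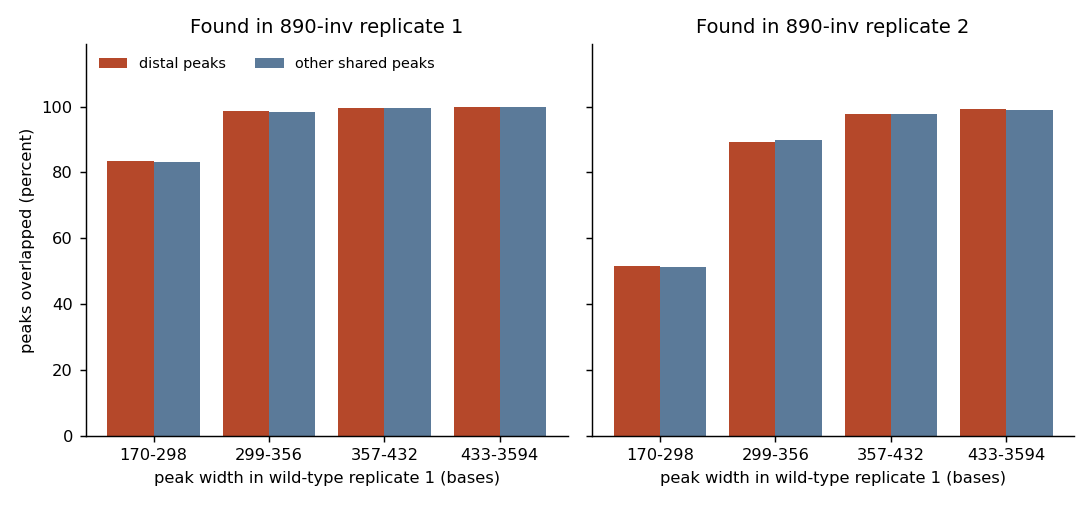
Share of peaks overlapped (percent) in 890-inv replicate 1 (left) and replicate 2 (right) by quartile of peak width in WT replicate 1, with distal peaks in red and other shared peaks in blue. In the narrowest quartile 83.6% of distal peaks are found in replicate 1 and 51.6% in replicate 2, and in each quartile the red and blue bars differ by less than 1 percentage point.

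The widest distal peak with no counterpart in 890-inv was chr5:106415234-106415844, 81.6 kb from the start of Zfp326. It measured 611 bases in the first WT library and 305 bases in the second. The next, chr7:151258229-151258632, lies in an intron of Shank2, a gene of the postsynaptic scaffold, 70.6 kb from its start, and measured 404 and 365 bases. It holds a consensus core on the minus strand, shown because it is the widest peak with the core that was missing from both 890-inv libraries.
chr7 site missing in 890-inv: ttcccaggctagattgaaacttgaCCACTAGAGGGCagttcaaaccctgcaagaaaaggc
Another, chr6:116916464-116916848, lies 202 kb from Cxcl12, the nearest protein-coding start and the gene of a chemokine made by stromal cells, and measured 385 and 262 bases. Of the 10 widest such peaks only that near Zfp326 exceeded 404 bases.

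The reverse comparison found few peaks. Outside the Igh locus, 3420 peaks over 50 kb from a start were shared by both 890-inv libraries, and 3384 of them (98.9%) overlapped a peak in both WT libraries. In neither WT library were 4 of them (0.117%), with a median width of 239 bases, against 359 bases for all 3420. For peaks at any distance the shares were near these. Of 28799 shared by both 890-inv libraries, 99.3% overlapped a peak in both WT libraries and 23 (0.0799%) in neither. The widest of the 4 distal ones was chr2:69985116-69985458, 50.9 kb from the start of Myo3b, at 343 bases. The reverse set was limited to peaks called in the second 890-inv library, which had the shortest list (29352 peaks). Its median width of 359 bases compares with 337 bases for the 4190 distal peaks. The 2 directions therefore start from unlike sets, and their shares cannot be read as sites gained or lost in 890-inv.

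The share of a library's own peaks that were distal was 12.48% and 12.37% in the WT libraries and 12.34% and 11.85% in the 890-inv libraries. The groups did not overlap, and the first 890-inv library lay close to the lower WT library. The means were 12.4 ± 0.078% and 12.1 ± 0.346% (SD, n = 2 each), a difference of -0.330 percentage points with an exact two-sided permutation p of 0.3333, the smallest possible here. Without the second 890-inv library the difference was -0.0852 points.

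No distal peak lies inside the Igh locus (chr12:114509484-117238672, 144 annotated gene segments and genes), because every one of its 71 shared peaks is within 46740 bases of an annotated start. The inverted segment, whose coordinates differ between the genomes used for WT and 890-inv, therefore touched no distal peak, and leaving out chromosome 12 gave 80.7% found in both 890-inv libraries. Within 1 Mb of the locus there were 6 distal peaks. The peak chr12:113546359-113546532 was 174 and 315 bases wide in WT and 229 bases in the first 890-inv library, with none in the second. The other 5 lie in introns of Ptprn2, a gene of secretory vesicles, between 98.3 and 168 kb from its start. Of these, 4 were found in all 4 libraries and chr12:117822335-117822615, with 281 and 247 bases in WT, in neither 890-inv library.

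Distal peaks were spread in short runs separated by long gaps. The median gap between neighbouring distal peaks was 160 kb (quartiles 18.9 and 699 kb), against 22.6 kb between all shared peaks. Gaps of at most 10 kb made up 17.6% (735 of 4169) and gaps over 1 Mb 18.1% (754). Because peaks near a start are left out, distal peaks on opposite sides of a start are over 100 kb apart by the rule. Counting every shared peak as a neighbour, the closest one lay a median 23.7 kb from a distal peak and 9.03 kb from other shared peaks. For 87 distal peaks no shared peak lay within 500 kb.

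The longest gap was 12.2 Mb on chromosome 17, between chr17:17704000-17704468 and chr17:29910302-29910653, and it held 298 protein-coding genes and 335 other shared peaks. The next were 12.1 Mb on chromosome 2, with 304 protein-coding genes and 104 shared peaks, and 11.9 Mb on chromosome 7, with 308 protein-coding genes and 288 shared peaks. All 3 stretches without distal peaks thus held other CTCF peaks, fewest on chromosome 2.

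**Figure D4:**
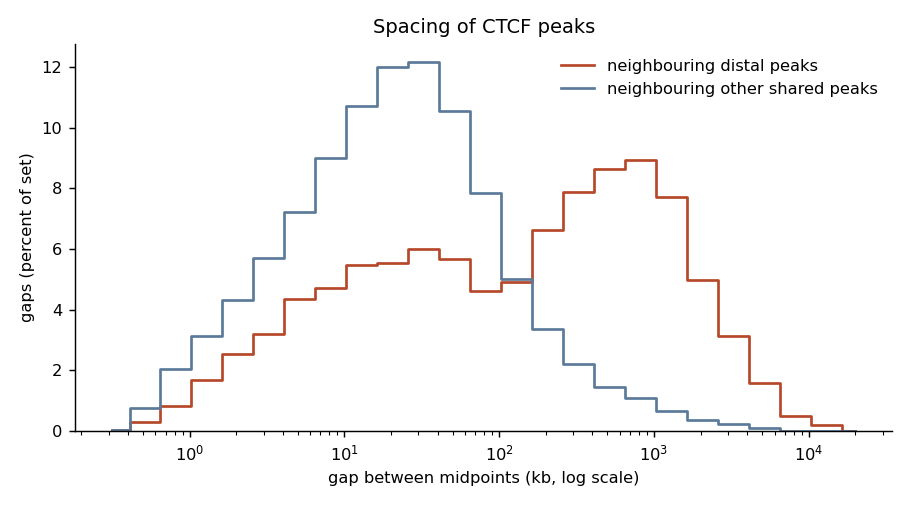
Distribution of gaps between neighbouring peaks on a log axis in kb, as a percent of each set, for distal peaks (red) and other shared peaks (blue). Gaps between distal peaks have a smaller maximum between 25.1 and 39.8 kb (250 gaps) and a larger one between 631 and 1000 kb (373 gaps), while those of the other peaks have a single maximum between 25.1 and 39.8 kb.

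When distal peaks no more than 50 kb apart were joined, they fell into 2635 groups. Of these, 1781 were single peaks (42.5% of distal peaks) and 86 groups held 5 or more, with 501 peaks in all. With a joining gap of 20 kb the single peaks were 57.95% and the larger groups held 204 peaks, and with 100 kb 33.2% and 795. Single peaks had a median width of 325 bases, and 93.3% were found in the first 890-inv library and 77.6% in the second. For peaks in groups of 5 or more the median width was 354 bases and the shares were 94.8% and 84.4%.

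The gap of 50 kb used for joining was chosen after values were seen. The largest group held 18 distal peaks in 189.5 kb at chr8:122768575-122958025, between the starts of Fam92b and Gse1. The neighbouring 1 Mb bin held another 18, around Irf8, a transcription factor of lymphoid and myeloid cells, and the forkhead genes Foxf1a and Foxc2. These were the fullest of the 1494 bins of 1 Mb that held a distal peak. All 36 lie inside Gm20388, an annotated gene model on the plus strand spanning chr8:122434741-126869622 that runs across these genes. The 36 peaks had median widths of 387.5 and 418 bases in WT and 393 and 341 bases in 890-inv, counting peaks found there. Of them, 34 were found in the first 890-inv library, 33 in the second and 33 in both. Neither library held chr8:122768575-122768778 (204 and 242 bases in WT) or chr8:123343264-123343502 (239 and 228 bases).

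The consensus core was present in 10 of these 36 peaks, 6 on the plus and 4 on the minus strand. The 4 of the Fam92b to Gse1 group are shown in order along the chromosome, because the last 2 lie 2.24 kb apart and point in opposite directions.
chr8:122812131-122812764, plus strand: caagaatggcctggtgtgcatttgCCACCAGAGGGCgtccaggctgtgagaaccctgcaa
chr8:122824470-122825178, plus strand: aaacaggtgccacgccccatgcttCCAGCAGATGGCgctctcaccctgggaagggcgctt
chr8:122843349-122843856, plus strand: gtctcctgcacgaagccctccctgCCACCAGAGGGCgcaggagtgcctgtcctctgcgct
chr8:122845582-122846092, minus strand: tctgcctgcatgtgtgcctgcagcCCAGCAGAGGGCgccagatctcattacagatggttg
The first of these measured 634 and 596 bases in WT and 537 and 531 bases in 890-inv, and the other 3 were likewise found in all 4 libraries.

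Some of the other runs lay within a gene and some between genes. The next largest, of 11 peaks in 140.1 kb at chr9:63664356-63804462 with Smad3 most often the nearest gene, had 1 peak inside a gene, and 10 of the 11 were found in both 890-inv libraries. Ksr2, a kinase scaffold gene of the Ras pathway, held 10 distal peaks in 28.9 kb at chr5:117943925-117972807, and all 10 were found in both 890-inv libraries. Its RNA was at 0 and 0.0134 TPM, the deposited transcript level scaled for length and depth, in the cultured cells. Med13l, a subunit of the Mediator kinase module, was nearest to a run of 9 in 159 kb at chr5:119105053-119264445, of which 6 lay in the gene, all found in both 890-inv libraries, with RNA at 48.5 and 50.0 TPM. Nav2 held 8 in 67.5 kb at chr7:56681489-56749018, again all found in both. Pde11a, a phosphodiesterase gene, held 8 in 64.3 kb, all found in the first 890-inv library and 5 in the second.

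Most distal peaks lay outside genes. Midpoints were intergenic in 2690 (64.2%), intronic in 1455 (34.7%) and exonic in 45 (1.07%). Among the other shared peaks the shares were 46.2%, 45.2% and 8.62%. Intronic and intergenic distal peaks had the same median width of 337 bases and were found at 93.5% and 94.9% in the first 890-inv library and at 82.2% and 80.9% in the second.

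The CTCF consensus core was searched on both strands of each peak. It was present in 1001 distal peaks (23.9%), against 20.3% of all shared peaks and 22.3% of those 10 to 50 kb from a start. Among shared peaks within 50 kb of a start the share was 19.8%, and within 1 kb 13.0%. Windows of equal length 2000 bases away held it at 0.382% for distal peaks. The core sat a median 17.0 bases from the peak midpoint, and 84.8% of cores were within 50 bases of it. It lay on the plus strand in 503 distal peaks and on the minus strand in 498. Only 7 distal peaks held more than 1 core.

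This share depends on the definition of the motif. The definition was not fixed beforehand: 8 were tried, a matrix was the main one at first, and the exact core was chosen after the values of the others had been seen. Across the 8 the share of distal peaks ran from 2.53% to 72.6%. Distal peaks were above the other shared peaks in 5 of them and below in 3, those with a matrix learned again from its own matches, which gave 8.14% against 10.5% at the threshold passed by 1% of flanking windows. That distal peaks hold the motif more often than other shared peaks therefore rests on the definition. Allowing 1 mismatch, 72.6% of distal peaks and 4.01% of their flanking windows matched, and 72.7% of shared peaks 10 to 50 kb from a start. The first matrix, of 20 positions and learned from the cores of the other shared peaks, matched 45.6% of distal peaks, 39.95% of the others and 0.811% of distal flanks. Among shared peaks 10 to 50 kb from a start it matched 44.2%. The consensus core became commoner with width, from 13.3% of distal peaks in the lowest quartile to 36.4% in the highest. Peaks with the core were found in both 890-inv libraries in 89.1% of cases, against 78.1% of those without it, with median widths of 369 and 328 bases. In the first library the shares were 97.2% and 93.6%, in the second 89.4% and 78.8%. Compared at the same width, peaks with the core differed less from peaks with neither the core nor the variant string described below. From the lowest width quartile to the highest, distal peaks with the core were found in both 890-inv libraries at 55.56%, 89.45%, 99.34% and 99.21%. Distal peaks with neither string were at 50.44%, 89.11%, 96.81% and 99.01%. Distal peaks found in neither library held the core in 12.1% of cases.

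A core that departs from the consensus was the commonest single string at the matches of the first matrix. It was picked out after its values were seen, and 3 of the widest distal peaks that hold it without the consensus core are shown for that reason. The 12 bases in capitals are CCAGAAGAGGGC. They are at chr1:72188165-72188971, chr6:51156633-51157363 and chr5:131483743-131484396, each on the plus strand. In these peaks of 807, 731 and 654 bases the strings are centred at -334.5, -119.5 and -178.0 bases from the midpoint. They thus lie off the centre, and whether CTCF is bound at them was not tested.
chr1 site: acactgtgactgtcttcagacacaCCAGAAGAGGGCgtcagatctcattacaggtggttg
chr6 site: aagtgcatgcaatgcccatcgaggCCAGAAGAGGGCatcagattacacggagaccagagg
chr5 site: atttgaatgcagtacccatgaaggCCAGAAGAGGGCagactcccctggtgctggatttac
Either strand of 486 distal peaks (11.6%) held this string, against 15.6% of other shared peaks and 1.76% of flanking windows of all shared peaks. It is known from B2 elements, a family of short rodent repeats that carries CTCF sites. No repeat annotation was used here, so which of these copies lie in repeats was not tested.

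Distal peaks with this string had a median width of 309 bases, against 369 bases for those with the consensus core. Of them 71.0% were found in both 890-inv libraries (92.2% in the first and 72.0% in the second), against 89.1% with the consensus core. The 7 commonest strings within the consensus had median widths of 351 to 393.5 bases and were found in both at 84.2% to 92.9%. At matched width the gap was smaller: in the lowest quartile 43.3% of distal peaks with the variant alone and 55.6% with the consensus core were found in both, and in the next quartile 87.5% and 89.5%. The variant fell from 16.2% of distal peaks in the lowest quartile to 6.21% in the highest, while the consensus core rose.

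Neighbouring distal peaks with a matrix match on each side, and no other shared peak between them, gave 531 pairs. The first matrix is used here because it gives more pairs than the core, which gave 155. Of these, 55.2% pointed in the same direction, 21.7% towards each other (convergent) and 23.2% apart (divergent). Up to 20 kb apart, 15.7% of 210 pairs were convergent and 31.0% divergent. Over 100 kb apart, 31.1% of 135 pairs were convergent and 13.3% divergent. Pairs of other shared peaks gave the same order, with 18.5% convergent and 27.5% divergent up to 20 kb and 34.95% and 18.9% over 100 kb. With the consensus core alone, distal pairs were 18.6% convergent and 33.9% divergent up to 20 kb (59 pairs), and 35.0% and 10% over 100 kb (40 pairs).

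**Figure D5:**
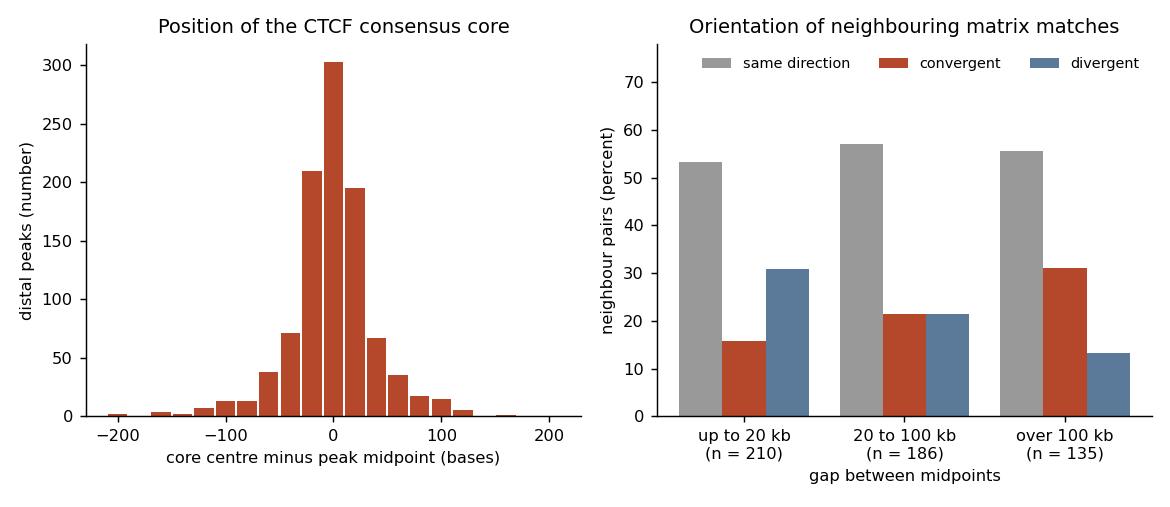
Number of distal peaks by the position of the consensus core relative to the peak midpoint, in bins of 20 bases (left), and orientation of matrix matches at neighbouring distal peaks as a percent of pairs, by gap (right). Cores gather at the midpoint, and convergent pairs make up 15.7% of pairs up to 20 kb apart and 31.1% of pairs over 100 kb apart.

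The base composition of distal peaks was closer to their surroundings than that of promoter peaks. Their median GC content was 44.2%, that of their flanking windows 44.1%. Shared peaks within 1 kb of a start had 55.0% and flanks of 46.4%. Those 10 to 50 kb from a start had 45.5% and flanks of 45.4%, so this closeness was not particular to distal peaks. CpG dinucleotides, which are dense at promoters, occurred at a mean of 12.3 per kb in distal peaks and 46.9 per kb in peaks within 1 kb of a start. Shared peaks 10 to 50 kb from a start had 12.7 per kb, near the distal value.

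Where the gene nearest to a distal peak had RNA values, it reached 1 TPM in the pro-B cultures in most cases. This was less often than for all shared peaks. A nearest protein-coding gene with a row in the RNA tables was found for 3510 distal peaks (83.8%), at a median distance of 100.3 kb over all of them. It reached 1 TPM in both RNA libraries for 2059 (58.7%), against 66.7% of all shared peaks, 64.3% of those 10 to 50 kb from a start and 78.1% of those within 1 kb. The share was 58.6% for distal peaks at 50 to 100 kb, 58.4% at 100 to 200 kb and 59.5% beyond 200 kb. In bulk RNA, fewer expressing cells and less RNA per cell cannot be told apart.

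The RNA was checked against the pro-B label by its markers. All 13 pro-B markers reached 1 TPM in both libraries, with summed levels of 7542 and 9529 TPM. All 5 stromal markers did too, summing to 1594 and 1358 TPM, while the 2 erythroid markers measured stayed below 1 TPM. Of 8 T and innate lymphoid markers 3 passed, with sums of 133 and 86.9 TPM, mostly Thy1, and Cd3e was at 0.0524 and 0.0574 TPM. Of 6 myeloid markers 3 passed, with sums of 27.8 and 47.7 TPM, and Elane was at 0. The part of stromal cells in the nearest-gene levels was not tested, and the CTCF libraries hold no measure of cell make-up.

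Distal peaks were nearest to 2127 protein-coding genes, and 8 of these had 10 or more. Med13l had 13 distal peaks, 94.5 to 493 kb from its start, of which 11 were found in both 890-inv libraries. Nav2, a gene of neuronal outgrowth, and Wwox, a long gene at a fragile site, had 12 each, with 11 and 10 found in both. Arid1b, a subunit of the BAF chromatin remodelling complex, had 11, of which 9 were found in both, with RNA at 33.9 and 40.8 TPM. Fam92b, Ksr2, Camk1g and Rnf144a had 10 each. All 10 of Camk1g lay upstream of its start, 70.4 to 373 kb away, and 8 were found in both. Mki67, a marker of dividing cells, had 9 upstream, with RNA at 154 and 158 TPM. The 18 genes with 8 or more distal peaks were followed by 23 genes with 7.

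A list of genes taken by symbol prefixes of neuronal adhesion and synapse families was also counted. It also holds genes of other tissues, such as Cdh5, the cadherin of blood vessel lining, and Kcnj2, a potassium channel of heart and muscle. Its genes were nearest to 185 distal peaks (4.42%), against 1.60% of other shared peaks and 1.72% of those 10 to 50 kb from a start. The list makes up 1.33% of protein-coding genes. By the 50 kb rule, long genes and genes far from other starts can be nearest to more distal peaks. The share of distant sequence nearest to the list was not measured, so the part of gene length and isolation was not tested. Cntnap2, a long neuronal adhesion gene, had 7 distal peaks, all found in both 890-inv libraries, with RNA at 0.0211 and 0.0231 TPM. Robo1, an axon guidance receptor, also had 7, all found in both. Nrxn3, a presynaptic adhesion gene, had 6, of which 5 were found in both, and Csmd1 had 6, of which 3 were. Of the 167 peaks whose neighbour in this list had an RNA row, 28 (16.8%) had an expressed neighbour, near the 17.65% for shared peaks 10 to 50 kb from a start and below the 26.0% for all those within 50 kb.

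A list by symbol prefixes of developmental transcription factor families also took in the prefixes Zfp and Znf. These name zinc-finger genes in general, so not all its genes are developmental factors. Its genes were nearest to 137 distal peaks (3.27%), against 2.60% of other shared peaks and 2.79% of those 10 to 50 kb from a start. The list makes up 2.71% of all protein-coding genes. Of these 137, 75.9% were found in both 890-inv libraries (91.2% in the first and 76.6% in the second). Over all 4190 distal peaks 80.7% were found in both (94.5% and 81.4%), and of other shared peaks nearest to the list 82.6%. For the 185 distal peaks nearest to the neuronal list the share in both was 78.9% (94.05% and 80.0%), against 80.7% of other shared peaks nearest to that list. Zfp536, a zinc-finger gene of neurons, had 9, all found in both 890-inv libraries, with RNA at 0.0171 and 0 TPM. Foxc2, a forkhead factor of lymphatic and mesenchymal development, had 5, all found in both. Zfp36l2, which encodes an RNA-decay factor caught by the Zfp prefix, had 5, of which 2 were found in both, with RNA at 151 and 130 TPM.

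Genes of the B lineage, listed together with the general chromatin genes Ctcf and Rad21, differed in whether they had a distal peak nearby. Of the 27 listed genes annotated under that symbol, 18 (66.7%), Rad21 among them, had a distal peak within 500 kb of a start. Over all 22367 protein-coding genes the share was 43.4%. The part of gene length and isolation was not tested here either, and Rag1 and Rag2 both count through the same closest peak. Irf8 had 31 within that window, the closest 55.7 kb from its start at chr8:123331644-123332042, with widths of 399 and 422 bases in WT and 375 and 359 bases in 890-inv. Its RNA was at 132 and 165 TPM. Ebf1, an early factor of B-cell commitment, had 5, and its closest was at chr11:44821467-44822008, found in both 890-inv libraries. That peak spans the 3' end of the gene, and its 96.1 kb runs to an annotated start inside Ebf1, not to the first. Foxo1 had 4, the closest at 71.7 kb. Bcl11a had 2, the closest at 69.6 kb, and Bcl2 and Lef1 had theirs closest at 85.3 and 99.6 kb. Rag1 and Rag2, the V(D)J recombinase genes, shared their closest distal peak, chr2:101365935-101366267, at 124 and 98.8 kb, which was found in all 4 libraries.

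Pax5, the factor that fixes B-cell identity, had no distal peak within 500 kb, the closest being 2070 kb from its start. Tcf3, another early B-lineage factor, had its closest at 2786 kb. Vpreb1 and Igll1, which encode the surrogate light chain, had theirs at 1817 and 1824 kb. The sites beside Ebf1 and on the side of Ikzf1, the Ikaros gene, are 2 of the 3 closest distal peaks of listed B-lineage genes that hold the consensus core, and are shown for that reason. The Ikzf1 site, at chr11:11139341-11139722, lies 446 kb from the Ikzf1 start, in an intron of another gene. Its nearest protein-coding start is that of Vwc2, 123043.5 bases away. Both sites are on the minus strand.
chr11 site near Ebf1: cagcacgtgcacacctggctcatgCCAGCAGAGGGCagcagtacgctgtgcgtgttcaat
chr11 site on the side of Ikzf1: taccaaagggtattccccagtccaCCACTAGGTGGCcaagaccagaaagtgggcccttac
Both peaks were found in all 4 libraries.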

How the data were processed

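The authors deposited 1 list of peak positions per CTCF library, with no read counts, heights or p-values, so depth is unknown. Positions are on mm9 for WT and on an mm9 with the inversion for 890-inv, per the design text of the series. The submitters' processing notes name Bowtie 1.0 and MACS2 2.0, with no roles, and no source used here gives their settings. RNA values are the authors' deposited TPM per gene, used without change and matched by symbol.

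Distances were taken from peak midpoints to the 86879 distinct starts of 95495 transcripts of GENCODE vM1 on NCBIM37, which is mm9. Overlaps, distances, the consensus core search and the scoring matrix (20 positions, from 5894 sites, threshold passed by 1% of windows 2000 bases away) were computed in Python 3.11.15 with NumPy 2.4.6, pandas 2.3.3, SciPy 1.17.1 and pysam 0.24.0. Overlap, distance and the first matrix were tested on simulated data, the re-learned matrix was not. Libraries were compared by exact permutation, whose p-values measure only the spread between these libraries, which may be technical. Other results are descriptions. The motif definition was settled after its values had been seen. In all 8 were tried: the matrix, which was the main one at first, at thresholds passed by 1%, 5% and 0.1% of flanking windows, the same 3 with the matrix learned again over 4 rounds, the exact core, now the main one, and the core with 1 mismatch. The re-learned matrix was set aside because 88.6% of its sites in distal peaks at 1% were a single string outside the consensus. The variant core, the chr8 genes, the joined groups and the printed sequences were also chosen after values were seen.

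Named peaks were the farthest, widest, narrowest, those beside the longest gaps, in the fullest 1 Mb bins (2 tied), at the threshold, missing in 890-inv or near Igh. Named genes were those nearest to most distal peaks and members of the lists. The members and lists were chosen with earlier results of these data known. Spi1 and Wapl are not annotated under those symbols. Of the 167 samples of the series, the others were not used here.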

Additional observations from a re-analysis of the deposited data

How the results depend on the processing

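The count of 4190 distal peaks ranged from 3120 to 6238 when the second WT list supplied the peak, overlap was reciprocal, distance ran from the peak edge, only protein-coding starts counted or the narrowest quartile was left out. It was 10373 beyond 20 kb and 1611 beyond 100 kb, fixed by the threshold, and 4469 to 4578 from a single WT library. The share found in both 890-inv libraries, 80.7%, stayed between 80.55% and 81.63% with stricter overlap, beyond 20 kb or without chromosome 12. It was 79.3% beyond 100 kb, 93.2% without the narrowest quartile, 98.65% in the widest quartile and 81.4% to 94.5% with 1 890-inv library. The difference in distal share kept its sign in each alternative run, with -0.574 to -0.0852 points when a library was left out. The width difference was -31.0 bases over peaks in all 4 libraries and ran from -29.0 to 1.0 when a library was left out, reversing to 1.0 without the second 890-inv library. The cause was not tested. The 501 peaks in joined groups of 5 or more became 204 with a gap of 20 kb and 795 with 100 kb, added after seeing the data. The share of nearest genes expressed was 66.8% at 0.1 TPM and 38.2% at 10 TPM. The core share, 23.9%, was the least stable. It was 72.6% with 1 mismatch, 45.6%, 72.2% and 6.28% with the first matrix at thresholds of 1%, 5% and 0.1% of flanking windows, and 8.14%, 37.45% and 2.53% with the re-learned matrix at the same thresholds. All 7 were seen before the exact core was made the main definition or were added with it, none was planned, and the re-learned matrix placed distal peaks below the other shared peaks. No paired analysis was possible because the labels give the CTCF libraries no replicate numbers.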

Other observations

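Across the 19 autosomes, the density of distal peaks per Mb of distant sequence went with the GC content of that sequence (Spearman's rho 0.76) and with the density of other shared peaks near starts (rho 0.639). These are descriptions across chromosomes, which share the libraries, and carry no test. Of distal peaks in the first WT library before sharing was asked for, 91.5% of 4578 were found again in the second, against 93.7% of 32109 peaks within 50 kb of a start. The 388 that were not found again had a median width of 239 bases, against 337 bases for those that were. For peaks within 50 kb the medians were 237 and 360 bases.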
